A study of Homo sapiens with 4 samples.

Results

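ISG15, the enzymes that attach it to proteins and the protease USP18 form a set of 6 genes (ISG15, UBA7, UBE2L6, HERC5, HERC6 and USP18), which were taken by symbol and matched by Ensembl gene ID. All 6 were among the 58735 genes of each count table. They were compared between A549 cells, an established human lung adenocarcinoma line, infected with a control hairpin lentivirus (shControl, labelled WT) and the same line infected with a hairpin lentivirus against RALY (shRALY, labelled RALY knockdown). RALY belongs to the hnRNPs, proteins that bind RNA. Both groups carry a lentivirus and were collected at day 2, with 2 libraries each. The labels name neither the hairpin sequence nor a second hairpin, and no uninfected cells were analysed here, so effects shared by both infections cannot be seen.

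ISG15 is a ubiquitin-like protein that is made in response to interferon. UBA7 is its activating enzyme (E1), UBE2L6 passes it on as the conjugating enzyme (E2), and HERC5 is the main human ligase (E3) that joins it to newly made proteins, while HERC6 is the related ligase that does this work in mice. USP18 removes ISG15 from its targets and, apart from that activity, binds the interferon receptor chain IFNAR2 and dampens signalling, and free ISG15 stabilises USP18 in human cells.

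Total counts ranged from 16745818 to 18632787 per library, and levels are given as CPM, counts scaled to the same library size. RALY itself stood at 123 and 133 CPM with the control hairpin and at 40.9 and 41.5 CPM with the RALY hairpin, a fall of 3.12-fold by the edgeR test (adjusted p = 5.85e-11). All 5 epithelial markers had counts and summed to 5294 to 5787 CPM in shControl and 5708 to 5886 CPM in shRALY. KRT19 was called higher (95.4 ± 7.39 and 312 ± 17.4 CPM, edgeR adjusted p = 1.35e-11) and so was CDH1 (23.2 ± 5.16 and 32.1 ± 3.87 CPM, edgeR adjusted p = 0.019), while KRT8, the most abundant, was not (3723 ± 325 and 3846 ± 153 CPM). The 9 alveolar markers summed to 74.3 to 105 CPM in shControl and 91.3 to 105.3 CPM in shRALY, nearly all from ABCA3 (87.7 ± 21.9 and 95.4 ± 9.91 CPM), which was not called. AGER had 22 to 45 counts, the surfactant gene SFTPC at most 2, and PDPN none. Of 12 immune cell markers 8 had a count in some library, and CD3D, CD3E, MS4A1 and LYZ were at 0 in every library. The summed immune markers ranged from 11.6 to 12.97 CPM in shControl and from 11.4 to 14.9 CPM in shRALY. Among the 3 immune markers tested, ITGAX rose from 0.87 ± 0.52 to 3.10 ± 0.23 CPM (SD, n = 2 per group, edgeR adjusted p = 0.00109). CD14 (7.32 ± 1.11 and 6.57 ± 2.02 CPM) and ITGAM (3.74 ± 0.31 and 2.97 ± 0.041 CPM) were not called. The part of these marker changes in the results below was not tested. The labels do not tell whether the libraries of a group came from different cultures, and the spread behind each p-value may therefore be technical.

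All 6 genes were higher in shRALY. Each passed the edgeR quasi-likelihood test at a Benjamini-Hochberg adjusted p below 0.05, against 20.6% of the 15912 tested genes called higher, 20.4% called lower and 41.0% called in either direction. Without shRALY replicate 2 the calls over all genes dropped from 3274 to 2040 higher and from 3245 to 1980 lower, and without shRALY replicate 1 those lower dropped to 1897, while all 6 genes were called higher in each of these fits. Their log2 fold changes ran from 2.74 to 6.23 with a median of 3.15, beside a median of -0.01 over all tested genes. Each of the 6 rose by more than 4-fold, as did 2.29% of tested genes. In all 6 the shRALY libraries both lay above both shControl libraries, which held for 34.2% of tested genes. Every shControl library had at least 14 counts of each gene, so none of the 6 was tested through its shRALY counts alone. Together the 6 genes took 0.00653% and 0.00635% of counts in shControl replicates 1 and 2 and 0.0958% and 0.103% in shRALY replicates 1 and 2. ISG15 supplied 11.6% and 9.78% of these counts in shControl and 50.2% and 50.01% in shRALY. In bulk RNA a change in the number of expressing cells and a change in RNA per cell cannot be told apart.

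**Figure D1:**
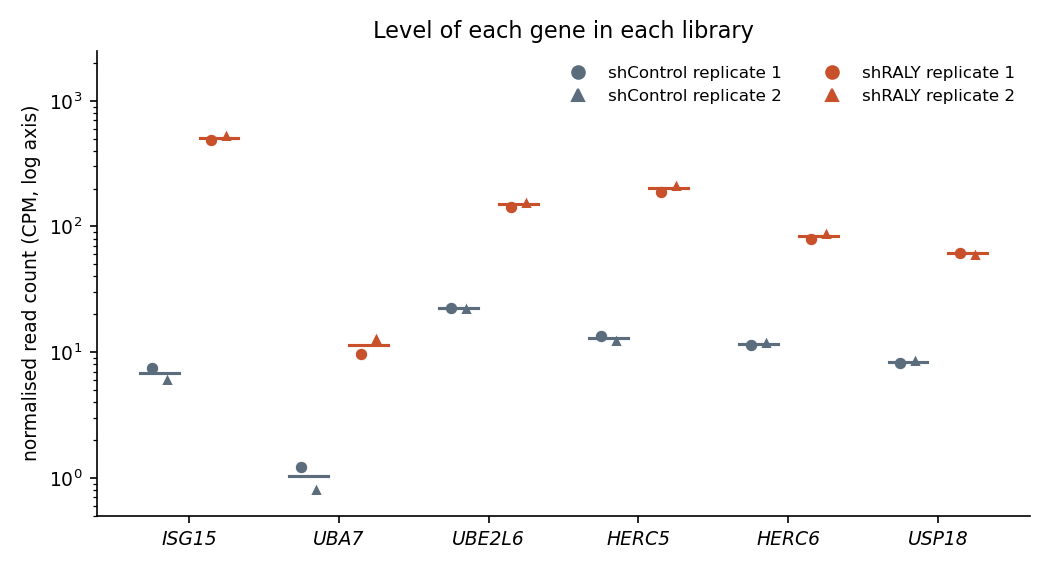
Normalised read count (CPM, log axis) of each of the 6 genes in each library, with circles for replicate 1, triangles for replicate 2 and a line at the group mean. The shRALY libraries lie above the shControl libraries for every gene, by the widest margin for ISG15 (488 and 531 against 7.43 and 6.11 CPM).

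ISG15 changed most. ISG15 (ENSG00000187608) is a plus-strand gene of chromosome 1 that spans positions 1001138 to 1014540 (GRCh38, GENCODE 29). Its level was 7.43 and 6.11 CPM in shControl replicates 1 and 2, and 488 and 531 CPM in shRALY replicates 1 and 2. The shRALY libraries differed from each other by far less than from either control, and the groups did not overlap. The rise was 75.1-fold (95% interval 61.2 to 92.2; log2 6.23, SE 0.14, edgeR adjusted p = 2.29e-19), which ranked 43 among the tested genes by log2 fold change.

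UBA7, the E1 that starts the cascade, was the scarcest of the 6 before and after the change. UBA7 (ENSG00000182179) is on the minus strand of chromosome 3, at 49805207 to 49813946. The control libraries held only 22 and 14 reads of it, or 1.23 and 0.82 CPM, against 179 and 211 reads, or 9.74 and 12.9 CPM, in shRALY. The rise was 10.9-fold (95% interval 7.22 to 16.5; log2 3.45, SE 0.29, edgeR adjusted p = 1.45e-09), with the widest interval of the set on the log scale.

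UBE2L6, the E2, had the highest control level of the 6 and the smallest fold change. The gene (ENSG00000156587) is on the minus strand of chromosome 11, at 57551656 to 57568284. Its control values were 22.4 and 22.3 CPM, and its shRALY values 144 and 156 CPM. The control libraries were nearly identical, and both shRALY libraries were several times higher. The rise was 6.69-fold (95% interval 5.63 to 7.95; log2 2.74, SE 0.12, edgeR adjusted p = 2.09e-14).

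The ligase genes HERC6 and HERC5 are neighbours on the plus strand of chromosome 4. HERC6 (ENSG00000138642) occupies 88378739 to 88443111 and HERC5 (ENSG00000138646) 88457117 to 88506163, with 14006 bases between them. HERC5 went from 13.5 and 12.5 CPM in shControl to 190 and 213 CPM in shRALY, a 15.5-fold rise (95% interval 12.8 to 18.7; log2 3.95, SE 0.13, edgeR adjusted p = 2.24e-16). HERC6 went from 11.3 and 12.1 CPM to 78.8 and 89.0 CPM, a 7.16-fold rise (95% interval 5.91 to 8.67; log2 2.84, SE 0.13, edgeR adjusted p = 6.43e-14). The control levels of these ligases were close in CPM, and in shRALY both HERC5 libraries were above both HERC6 libraries. The words of 50 bases in the longest HERC5 transcript occur in no other gene, and 0.804% of those of HERC6 occur elsewhere, so reads of one ligase are rarely assignable to the other.

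USP18, the protease, rose by about as much as HERC6. USP18 (ENSG00000184979), a plus-strand gene of chromosome 22, spans positions 18149899 to 18177397. Its control values were 8.21 and 8.63 CPM and its shRALY values 61.9 and 60.5 CPM, and within each group the libraries differed little. The rise was 7.27-fold (95% interval 5.94 to 8.89; log2 2.86, SE 0.14, edgeR adjusted p = 1.24e-13). USP18 shares 23.4% of its 50-base words with other genes, 23% with USP41, a near copy on the same chromosome. USP41 had 0, 1, 0 and 0 counts in shControl replicates 1 and 2 and shRALY replicates 1 and 2. How reads matching both copies were counted is not given in the sources used here, so the level of USP18 is uncertain to that extent.

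The stretch before the gene start of ISG15 and HERC5 is shown because both hold the core of the interferon-stimulated response element, the element bound by ISGF3 and IRF factors, and that of HERC6 because it lies beside HERC5 and holds no match. RefSeq promoter windows (GRCh38.p14) were found for 4 of the 6 genes, ISG15, UBE2L6, HERC5 and HERC6. Bases within an annotated exon of the gene were left out of what is printed, which removed nearly all of the UBE2L6 windows. Sequences run 5′ to 3′ on the plus strand, which is the coding strand of all 3 genes, and capitals mark each match to GAAANNGAAA or its reverse complement.
ISG15, chr1:1013247-1013422: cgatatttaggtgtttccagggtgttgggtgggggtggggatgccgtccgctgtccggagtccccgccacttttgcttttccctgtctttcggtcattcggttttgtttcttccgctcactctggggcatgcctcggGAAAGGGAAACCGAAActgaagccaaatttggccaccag
HERC5, chr4:88456869-88457116: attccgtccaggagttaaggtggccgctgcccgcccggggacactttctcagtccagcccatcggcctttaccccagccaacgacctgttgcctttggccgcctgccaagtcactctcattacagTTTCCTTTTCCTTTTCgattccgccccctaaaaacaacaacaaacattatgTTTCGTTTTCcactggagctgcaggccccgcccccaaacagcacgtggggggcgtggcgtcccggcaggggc
HERC6, chr4:88378602-88378738: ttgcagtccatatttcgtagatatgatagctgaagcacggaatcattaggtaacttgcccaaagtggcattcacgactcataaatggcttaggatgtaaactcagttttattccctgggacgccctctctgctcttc

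In ISG15 there were 2 overlapping matches on the coding strand, whose first bases lie 113 and 107 bases before the RefSeq start at 1013497. In HERC5 there were 3 matches on the opposite strand, at 125, 119 and 74 bases before the start at 88457119, of which the first and second overlap. The whole 250-base windows of HERC6 and UBE2L6 (which has 2) held none. Of all 35116 RefSeq windows of 250 bases, 3.02% held GAAANNGAAA on either strand. The gamma-activated site core TTCNNNGAA, searched on both strands, occurred in none of the 5 windows and in 6.57% of all windows. A match is a description of these letters, and an absent match says only that they are not in this window. The ISG15 model in GENCODE begins upstream of the RefSeq start, so the printed stretch lies between exons of that longer model.

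Compared per length, the order of the 6 genes changed. On the scale of CPM per kilobase of annotated exon, shControl ran from UBE2L6 (10.2 ± 0.026) through ISG15 (7.19 ± 0.99), USP18 (3.95 ± 0.14), HERC5 (2.72 ± 0.16) and HERC6 (2.02 ± 0.093) to UBA7 (0.23 ± 0.063). In shRALY the order was ISG15 (542 ± 32.4), UBE2L6 (68.1 ± 3.88), HERC5 (42.2 ± 3.47), USP18 (28.7 ± 0.48), HERC6 (14.5 ± 1.25) and UBA7 (2.49 ± 0.49), each as mean ± SD with n = 2. ISG15 moved above UBE2L6, and HERC5 moved above USP18. In both groups, every library of a gene lay above every library of the next gene in the order. The lengths join all annotated exons of a gene, 4766 bases for HERC5 and 2129 for USP18. The longest HERC5 transcript has 3513 bases, and this shorter length would bring HERC5 nearer to USP18 in shControl. UBA7 remained last, below HERC6 by the widest step in shControl.

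**Figure D2:**
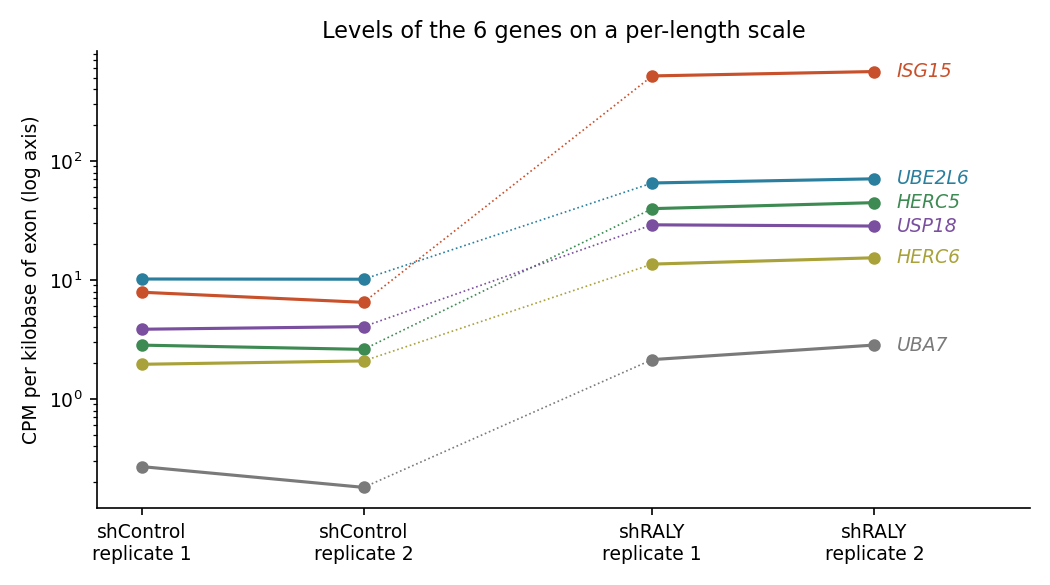
CPM per kilobase of annotated exon (log axis) of the 6 genes in each library. Solid lines join replicates of a group and dotted lines lead from one group to the other. ISG15 lies below UBE2L6 in both shControl libraries and above it in both shRALY libraries, and HERC5 and USP18 change places.

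Ratios within a library, which do not depend on how libraries are scaled, showed unequal change. Per kilobase, ISG15 exceeded USP18 by 2.05 and 1.60 times in shControl replicates 1 and 2 and by 17.8 and 19.9 times in shRALY replicates 1 and 2. The mean log2 ratio of USP18 to ISG15 thus fell by 3.38. HERC5 exceeded HERC6 by 1.45 and 1.25 times in shControl and by 2.92 and 2.91 times in shRALY, a change of -1.11 in the mean log2 ratio of HERC6 to HERC5. UBE2L6 exceeded UBA7 by 37.7 and 56.2 times in shControl and by 30.5 and 25.0 times in shRALY, a change of -0.74 in the mean log2 ratio, with both shRALY values below both control values. The SD of that log2 ratio was 0.41 in shControl, where UBA7 had only 22 and 14 counts, and 0.20 in shRALY. For each of the 3 ratios the groups did not overlap. The two-sided exact permutation test gave p = 0.333 for each (0.333 after Benjamini-Hochberg adjustment over the 3), the smallest value that 2 libraries against 2 allow.

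None of the named relatives that serve ubiquitin or other modifiers rose as much as any of the 6. UBA1, the main ubiquitin E1, had 508 ± 19.9 CPM with the control hairpin and 512 ± 14.5 CPM with the RALY hairpin (log2 0.01, 95% interval -0.19 to 0.22, or -0.04 with library size alone). Of 9 E1 genes of other modifiers, 3 were higher, among them UBA6 and ATG7, and 3 lower (SAE1, UBA2 and NAE1), or 33.3% each way beside 20.6% and 20.4% of all tested genes, with a median log2 fold change of 0.01. SAE1, a subunit of the SUMO-activating enzyme, fell 7.06-fold, from 279 ± 6.48 to 39.6 ± 1.91 CPM (edgeR adjusted p = 5.16e-15). UBA6, an E1 for ubiquitin and FAT10, rose 1.49-fold and ATG7, the E1 of autophagy, 1.53-fold (edgeR adjusted p = 0.000833 and 0.000382). ATG7 shares 31.5% of its words with a gene on the opposite strand and is uncertain. Without shRALY replicate 2, 1 of the 9 E1 genes was lower.

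Among the other 33 E2 genes, 9 were higher (27.3%) and 8 lower (24.2%), near the 20.6% and 20.4% of all tested genes, with a median of -0.00. UBE2L3, the closest relative of UBE2L6 and an E2 for ubiquitin, did not pass (115 ± 10.2 and 96.8 ± 1.25 CPM, log2 -0.25, edgeR adjusted p = 0.0723). It passed as lower without shControl replicate 2 (edgeR adjusted p = 0.00254), with library size alone (0.0286) and with the replicate number as a block (0.0353). The 3 largest changes among them were falls: UBE2C, which serves the anaphase-promoting complex, by 8.24-fold, UBE2T, of the Fanconi pathway, by 4.29-fold, and UBE2S, which extends chains for the same complex as UBE2C, by 3.62-fold (edgeR adjusted p between 5.65e-14 and 1.25e-10). The E2 counts were 4 higher and 3 lower without shRALY replicate 1, and 5 and 4 without shRALY replicate 2.

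None of the 4 other HERC genes was higher by edgeR, by DESeq2 or in any other fit except the one without shControl replicate 1, where HERC4 passed (log2 0.26, edgeR adjusted p = 0.0134). By edgeR on all 4 libraries, 0% of these 4 genes were called higher and 50% lower, beside 20.6% and 20.4% of all tested genes. HERC1 went from 90.7 ± 12.65 to 64.2 ± 7.46 CPM (log2 -0.50, edgeR adjusted p = 0.00236) and HERC2 from 269 ± 51.8 to 197 ± 21.6 CPM (log2 -0.45, edgeR adjusted p = 0.00515), both called lower. Both calls were lost without shRALY replicate 1 (edgeR adjusted p = 0.162 and 0.204), and HERC2 shares 23.2% of its words with other genes. HERC3, which lies on the same chromosome as HERC5 and HERC6, did not pass (17.8 ± 0.95 and 14.96 ± 0.54 CPM), and HERC4 stood at 138 ± 7.28 and 160 ± 5.08 CPM in the fit of all 4 libraries. Of 2 other ligases reported for ISG15, TRIM25, itself an interferon-induced gene, rose 3.25-fold, from 109 ± 10.4 to 355 ± 26.5 CPM (edgeR adjusted p = 1.94e-11), and ARIH1 did not pass (104 ± 11.6 and 110 ± 4.69 CPM).

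**Figure D3:**
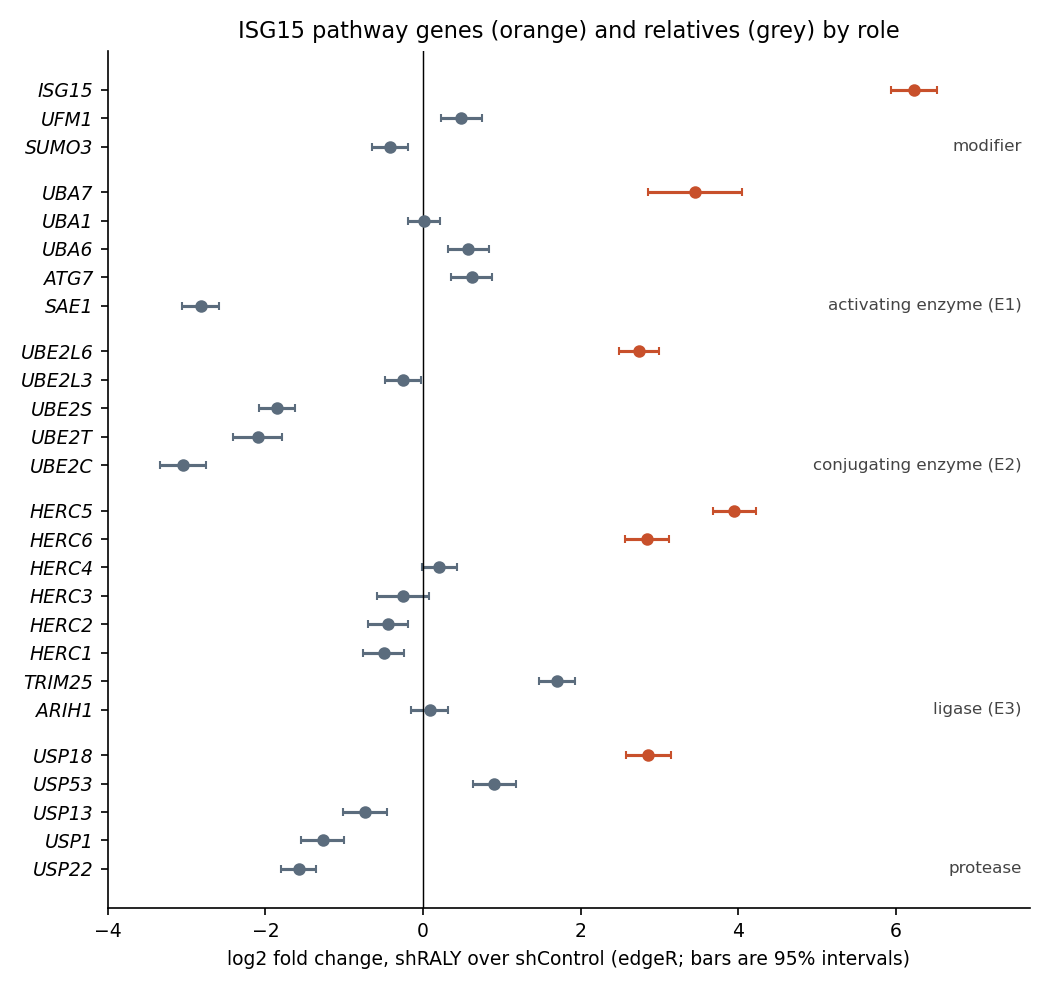
Log2 fold change of shRALY over shControl with 95% intervals for the 6 genes (orange) and relatives (grey), in blocks by role. The orange points lie between 2.74 and 6.23, and the grey points lie between -3.04 (UBE2C) and 1.70 (TRIM25).

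Of 49 ubiquitin-specific proteases besides USP18, 45 were tested, 7 were higher (15.6%) and 11 lower (24.4%), near the 20.6% and 20.4% of all tested genes, with a median log2 fold change of -0.06. USP22, of the SAGA complex, fell 2.99-fold, from 422 ± 37.4 to 141 ± 7.12 CPM, USP1, which acts in DNA repair, fell 2.42-fold, and USP53 rose 1.88-fold (edgeR adjusted p = 4.28e-11, 4.57e-08 and 5.81e-06). The number higher was 3 without shRALY replicate 1 and 4 without shRALY replicate 2. Of 6 of these that have been reported to act on ISG15, USP2 was called higher at a low level (0.66 ± 0.14 and 1.73 ± 0.061 CPM, edgeR adjusted p = 0.025) and USP13 lower (34.9 ± 1.44 and 20.9 ± 0.053 CPM, edgeR adjusted p = 0.000112). That was 16.7% each way, near the 20.6% and 20.4% of all tested genes, with a median log2 fold change of -0.18. USP5, USP14, USP16 and USP21 did not pass. USP2 lost its call in the DESeq2 fit and without either shRALY library. For this list the number lower was 2 without either shControl library.

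Of 13 genes of ubiquitin and other modifiers, 12 were tested, 5 were higher, among them UBB, UFM1 and FAU, and 3 lower (RPS27A, SUMO2 and SUMO3), or 41.7% and 25% beside 20.6% and 20.4% of all tested genes, with a median log2 fold change of 0.14. UFM1 rose 1.40-fold (edgeR adjusted p = 0.00314; 0.0952 without shRALY replicate 2), and SUMO3 was 1.34-fold lower (edgeR adjusted p = 0.00395; 0.109 and 0.130 without shRALY replicates 1 and 2). UBB, RPS27A and FAU share over 20% of their sequence with other genes and are uncertain. UBD, the interferon-gamma and TNF responsive modifier FAT10, was at 0 throughout. It overlaps other genes over 76.9% of its exonic bases, so this 0 does not bound its level. The numbers were 2 higher and 0 lower without shRALY replicate 1, 1 and 0 without shRALY replicate 2, and 3 higher with library size alone.

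Of 12 genes of interferon receptors and signal transducers, 8 were higher (66.7%) and 1, TYK2, lower (8.33%), beside 20.6% and 20.4% of all tested genes, with a median log2 fold change of 0.74. STAT2, a component of ISGF3, rose 6.17-fold, from 22.5 ± 3.19 to 139 ± 3.44 CPM (edgeR adjusted p = 9.00e-14). IRF9, the DNA-binding component of ISGF3, went from 2.05 ± 0.76 to 3.79 ± 0.95 CPM (edgeR adjusted p = 0.0333). Leaving out either replicate 1 library ended the IRF9 call (edgeR adjusted p = 0.224 for shControl and 0.325 for shRALY), as did DESeq2 (adjusted p = 0.113), and all of its words lie in a read-through gene on its strand, so its count is uncertain. IRF7, a factor that amplifies interferon production, rose 27.6-fold, from 4.30 ± 0.15 to 119 ± 1.19 CPM, and IRF1 rose 9.32-fold (edgeR adjusted p = 4.70e-17 and 3.58e-15); IRF1 shares 32.2% of its words with other genes. IFNAR2, the receptor chain that USP18 binds, did not pass (2.03 ± 0.032 and 3.07 ± 0.33 CPM, edgeR adjusted p = 0.149), and it shares 84.5% of its words with other genes. Without shRALY replicate 1 the numbers were 5 higher and 0 lower.

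Of 8 other inhibitors of interferon signalling, 3 were higher (SOCS1, SOCS3 and PTPN1) and 2 lower (SOCS2 and PIAS1), or 37.5% and 25% beside 20.6% and 20.4% of all tested genes, with a median of 0.03. SOCS1 and SOCS3, feedback inhibitors of JAK kinases, rose 17.1-fold, from 0.99 ± 0.57 to 17.2 ± 4.43 CPM, and 4.40-fold, from 24.4 ± 2.53 to 107 ± 7.604 CPM (edgeR adjusted p = 1.41e-10 and 2.43e-12). PIAS1, a SUMO ligase that inhibits this signalling, was lower at log2 -0.68 (edgeR adjusted p = 6.62e-05) and overlaps other genes over 32.3% of its exonic bases. Without shRALY replicate 1 the number lower was 1. Of 8 partners and regulators of the pathway, 6 were tested, of which TRIM25 and STAT2 were higher and SKP2 lower. These were 33.3% and 16.7% of those tested, beside 20.6% and 20.4% of all tested genes, with a median of 0.36. SKP2, a subunit of the ubiquitin ligase that turns over USP18, fell 1.58-fold, from 29.4 ± 3.21 to 18.6 ± 1.44 CPM (edgeR adjusted p = 0.000853). Among 13 proteins reported to carry ISG15, 7 genes were higher and 2 lower (PCNA and UBE2N, which is uncertain through its shared sequence), or 53.8% and 15.4% beside 20.6% and 20.4% of all tested genes, with a median of 0.31. The number lower was 1 without either shRALY library. MX1, an antiviral GTPase, rose 312-fold, from 1.36 ± 0.57 to 422 ± 19.3 CPM. IFIH1 (MDA5) and DDX58 (RIG-I), sensors of double-stranded RNA, rose 63.7-fold and 20.4-fold (edgeR adjusted p for these 3 genes between 1.27e-19 and 1.83e-17).

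**Figure D4:**
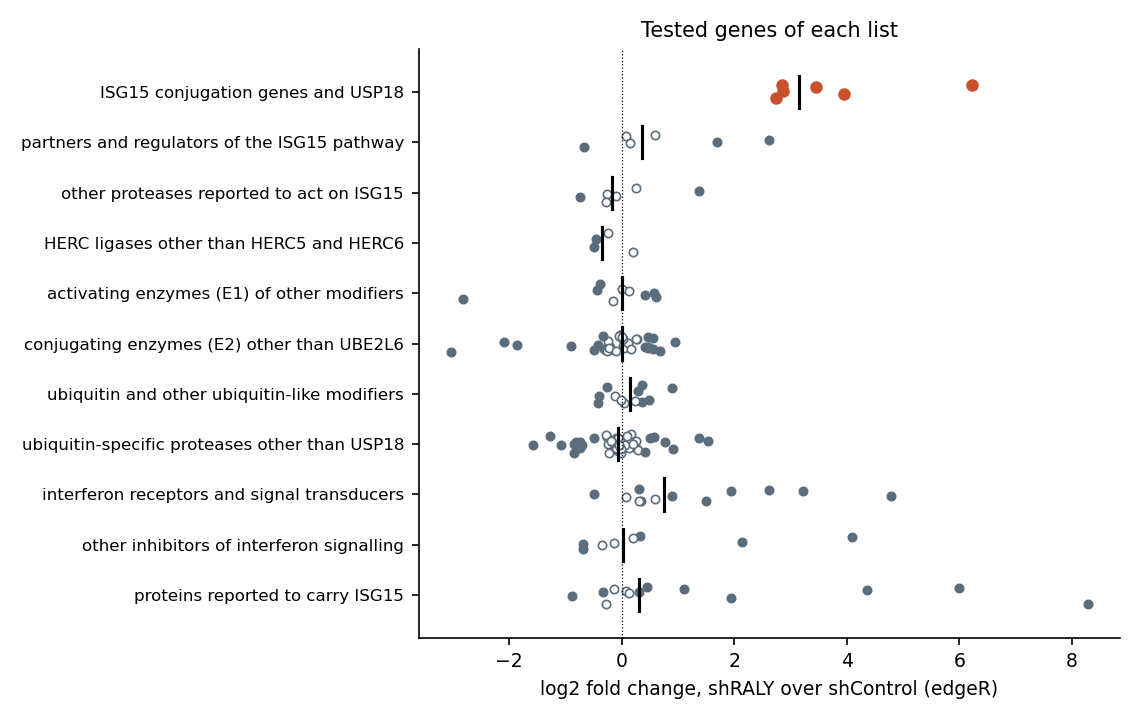
Log2 fold change of every tested gene of each list, with filled grey points for genes past the edgeR threshold, open points for the others, the 6 ISG15 pathway genes in orange and a bar at each list's median. The 6 genes have a median of 3.15, and the medians of the other lists lie between -0.35 and 0.74.

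Genes next to the 6 loci did not all follow them. PPM1K, a phosphatase gene 93970 bases from HERC6, rose 11.6-fold, from 3.72 ± 0.13 to 43.2 ± 1.89 CPM (edgeR adjusted p = 7.71e-14), whereas PYURF, 14822 bases from HERC5, did not pass (37.2 ± 2.68 and 44.0 ± 1.01 CPM; edgeR adjusted p = 0.124, or 0.0253 without shControl replicate 1). Beside ISG15, HES4, a transcriptional repressor gene 966 bases away, rose 4.29-fold and AGRN, which encodes agrin, 2.17-fold (edgeR adjusted p = 4.77e-10 and 4.20e-08). The distance to HES4 is taken from the GENCODE start of ISG15 at 1001138. The RefSeq start at 1013497, used for the promoter window, lies farther from HES4. SMTNL1, 1382 bases from UBE2L6, had 0 and 4 counts in shControl and 138 and 149 in shRALY (edgeR adjusted p = 6.71e-10). On its other side SERPING1, the complement C1 inhibitor gene, had 0 and 7 counts in shControl and 56 and 59 in shRALY (edgeR adjusted p = 1.29e-05, DESeq2 adjusted p = 0.0763). SMTNL1 and SERPING1 were below the minimum count of 10 in both shControl libraries, so they entered the test through their shRALY counts alone. TRAIP, a ligase gene 14653 bases from UBA7, fell 5.73-fold (edgeR adjusted p = 1.77e-09), and INKA1 on the other side did not pass (0.83 ± 0.25 and 0.93 ± 0.45 CPM). Both neighbours of USP18, TUBA8 and GGTLC3, had too few counts to test, and both share most of their words with other genes (68.3% and 90.9%), so these counts are uncertain. Strand is not known for these counts, so reads running past one gene into an opposite-strand neighbour cannot be assigned.

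The genes whose profiles over the 4 libraries were most like those of the 6 were found by the Euclidean distance between centred log2 CPM profiles (prior count 2). For ISG15 these were IFIT1 (distance 0.332; 8.88, 10.1, 667 and 705 CPM in shControl replicates 1 and 2 and shRALY replicates 1 and 2) and IFNL2 (0.334), for which shControl had no counts and which shares 32% of its words with IFNL3. HERC5 was most like ETV7 (0.11), with 2 counts in each control library, and APOL1 (0.155), which went from 7.83 ± 0.86 to 112 ± 13.1 CPM. USP18 was most like PARP12 (0.136; 20.5 ± 0.97 and 154 ± 6.03 CPM) and IL10RA (0.14). UBE2L6 was most like MAFF (0.0441; 3.55 ± 0.12 and 24.1 ± 1.26 CPM) and IL10RA (0.0808). HERC6 was most like the noncoding gene AC018638.6 (0.0591) and IL10RA (0.0705), and UBA7 was most like NTN1 (0.22) and AC009950.1 (0.269), a noncoding gene that overlaps SP110 over 33.8% of its exonic bases. IL10RA had no control counts and 0.65 and 0.73 CPM in shRALY, and the prior count sets the profile of such a gene. With 4 libraries in 2 groups, this likeness rests mostly on the size of the difference between groups.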

How the data were processed

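RNA from 4 libraries (2 shControl, 2 shRALY) was sequenced after poly-T selection, per the labels' protocols. Each deposited file gives 1 library's whole-number counts by Ensembl gene ID. HISAT2 2.0.5, featureCounts 1.5.0-p3, DESeq2 1.20.0 and the hg38 build are named per the submitters' processing notes; for their roles, the strand setting and the handling of reads with several matches, the answer is not given in the sources used here. All 58735 IDs matched GENCODE 29. Group and replicate number came from the titles.

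Counts were tested over all genes with edgeR 4.0.16 in R 4.3.3 (filterByExpr with a minimum count of 10 and total of 15, TMM scaling, robust quasi-likelihood F-test, Benjamini-Hochberg threshold 0.05), which kept 15912 genes holding 99.83% of counts. SE was taken as |log2 fold change| divided by the root of F, and 3 counts, the floor of a gene at 0, are 0.161 to 0.179 CPM. Floors from counts cover counting error only. The intervals of fold changes were built from the SE of the quasi-likelihood test. They therefore include the spread between libraries as estimated by that test, which may be technical. Replicates differed by more than counting noise (chi-square for each gene 11.6 on average in shControl and 4.85 in shRALY). The fit was also run on simulated counts with the same spread beyond counting noise for every gene. That run does not show how the fit handles the spread of these libraries. Genes sharing over 20% of 50-base words of the longest transcript, or of exonic bases, with other genes are named as uncertain; cell type markers were not checked for this.

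The 6 genes and the 10 lists were chosen with earlier results of these data known. Besides them, the rule named RALY, the 2 most alike genes and nearest protein-coding neighbours of each, the 3 called genes with the largest change and at least 10 CPM in each list, and TRIM25, ARIH1, USP41, SKP2, HERC1 to HERC4, UBA1, UBE2L3, STAT2, IRF9 and IFNAR2. UBA2, NAE1, UBB, FAU, RPS27A, SUMO2, PTPN1, SOCS2, PCNA, UBE2N, USP2, USP5, USP14, USP16, USP21, TYK2, UBD, ITGAX, CD14, ITGAM, KRT8, KRT18, KRT19, EPCAM, CDH1, ABCA3, AGER, SFTPC and PDPN were named after their values were seen. Alternatives were DESeq2 1.42.0, RLE, library size alone, the replicate block, each library left out, no filter, a filter at 10 CPM (in 2 libraries), estimation that was not robust, and USP18 and USP41 added. Results of some genes the rule names are not reported here.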

Additional observations from a re-analysis of the deposited data

How the results depend on the processing

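The call of all 6 genes as higher held under every alternative that gave a value; UBA7 was not kept by the filter of 10 CPM in 2 libraries, which left 5 genes called. Log2 fold changes ranged from 6.11 to 6.38 for ISG15, 3.21 to 3.76 for UBA7, 2.69 to 2.81 for UBE2L6, 3.88 to 4.04 for HERC5, 2.76 to 2.93 for HERC6 and 2.81 to 2.91 for USP18, with the largest adjusted p at 4.67e-09. With the counts of USP41 added, USP18 was at 2.86. The replicate numbers are not known to pair libraries: deviations of same-numbered libraries correlated at 0.0721, and with the replicate block 3639 genes were higher and 3619 lower, with ISG15 at 6.23 and 6 of the 6 genes called. Leaving out each library in turn gave 2040 to 3559 genes higher and 1897 to 3499 lower.

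Leaving out each library also gave, for other HERC genes, 0 to 1 higher and 0 to 2 lower; for E1 genes 1 to 4 lower; for E2 genes 4 to 10 higher and 3 to 12 lower; for modifiers 1 to 6 higher and 0 to 3 lower; for ubiquitin-specific proteases 3 to 9 higher; for proteases reported to act on ISG15 0 to 1 higher and 1 to 2 lower; for interferon signalling genes 5 to 7 higher and 0 to 1 lower; for other inhibitors 1 to 3 lower; and for proteins reported to carry ISG15 1 to 3 lower. Proteases reported to act on ISG15 were 0 higher by DESeq2 and with the filter of 10 CPM, and 3 lower with library size alone and with the replicate block. Modifiers were 3 higher with library size alone. Signs that turned, none of them in a called gene, were UBA1 with library size alone (log2 -0.043); UBA1 ran from -0.032 to 0.068, ARIH1 from -0.010 to 0.197 and INKA1 from -0.425 to 0.603 when each library was left out. The cause was not tested. With 2 libraries per group, the ratios between genes cannot reach a p below 0.333, and UBA7, with 14 to 22 control counts, is the least precisely measured of the 6.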
